A study of Mus musculus with 40 samples.

Results

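The comparison asked what 10 mg/kg folic acid, against 2 mg/kg, in a western diet eaten by the mother does to gene expression in the liver of male fetuses. The 10 libraries were taken by their labels out of 40 in the series: 5 of WDF males (dams fed a diet with 45% of its calories from fat and 10 mg/kg folic acid) and 5 of WD males (45% fat, 2 mg/kg). All fetuses were C57BL/6, taken on gestational day 18.5, and all dams ate their diet for 13 weeks before mating and on through pregnancy. The study uses the 45% fat diet as its mouse model of gestational diabetes, so both groups come from that model and differ in the vitamin dose. WDF and WD females, and CDF and CD males (10% fat with 10 and with 2 mg/kg), also 5 libraries each, serve below to set the difference beside the same dose step elsewhere. Each library came from the RNA of 1 fetus. Neither dam nor litter is given in the labels. Some of the 5 fetuses of a group may be littermates, and the tests then measure only how far such fetuses differ.

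Folic acid is reduced in cells to tetrahydrofolate, which carries carbon units for the synthesis of thymidylate and purines and for turning homocysteine back into methionine, the source of methyl groups for DNA and histones. The liver holds much of the body's folate and the enzymes that use it. Shortly before birth this organ still makes blood cells, and its hepatocytes are taking up their adult work of lipid oxidation, lipoprotein and bile acid production and secretion of plasma proteins. In a whole-liver RNA sample, fewer cells of a type and less RNA per cell cannot be told apart.

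Values are the authors' deposited normalized read counts, which on their own evidence were divided by a scaling factor per library, and they summed to between 15064069 and 18511730 in the 10 libraries. The authors' whole read counts are not used here, so sequencing depth is unknown. Alb, the albumin gene that marks hepatocytes, lay between 910362 and 1353834, and Afp, its fetal relative, between 426364 and 529318. The Y-linked Ddx3y was at 1155 to 1527 in all 10. WDF male 2 stood apart by carrying message of lung: Sftpc, a surfactant gene of the lung epithelium, was 0, 5978, 0, 133 and 3.28 in WDF males, against 14.7, 5.34, 0, 2.39 and 0.917 in WD males. Over 12 lung markers the summed value was 10327 in WDF male 2 and 1067 to 1229 in the other 4 WDF males, against 920 to 1242 in the 5 WD males. Xist, the RNA that coats the inactive X chromosome of female cells, was 0.644, 0.659, 10.7, 7.65 and 10.7 in WDF males, against 0, 0.488, 0, 0 and 1.11 in WD males. WDF males 3 to 5 thus held a trace of it. Low as its values were, Xist was in the 12 genes of smallest p among those higher in WDF males. Its log2 difference was 2.00, or 2.40 without WDF male 2, and the source of this RNA was not tested. For most lists the count or the median without WDF male 2 is also given below.

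No gene passed the test over all genes. Of 15377 genes tested with limma in 1 fit of 38 libraries, 0 had an adjusted p under 0.05, and the smallest adjusted p was 0.105. At an unadjusted p under 0.05 there were 1354 genes, 8.81% of those tested, with 733 higher (4.77%) and 621 lower (4.04%) in WDF males. In 206 genes (1.34%) all 5 WDF males lay above all 5 WD males, and in 181 (1.18%) all 5 lay below. The median log2 difference over all tested genes was 0.0079, with 51.4% of them above 0 and 48.6% below. Without WDF male 2 the lower count at p under 0.05 was 412. The higher count lay between 551 and 871 over the libraries left out in turn, WDF male 2 among them, and is not given for that setting alone. Counts of higher list members without WDF male 2 are to be read beside that range. Counts at p under 0.05 move with the libraries that share the fit. For several lists they are given below also for all 40 libraries, which adds 2 female libraries rich in lung message, and for the 10 male libraries alone. The counts over all genes with all 40 libraries stand in the closing section. For the 10 alone the share over all genes is not given, so list counts from that fit cannot be set against it. Fitted with limma-voom, 0 genes passed, and with libraries weighted by how closely they follow their group 621 passed. The single genes and groups below are therefore described by their values, and "higher" or "lower" states a direction only.

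Cell division genes lay lower in WDF males. The list of 40 mitosis genes had 33 members lower and 7 higher, with a median log2 difference of -0.24. At p under 0.05 there were 14 lower and 0 higher, and in 5 of the 40 all WDF males lay below all WD males. Cyclins and kinases made up most of that count, with 14 of 15 lower and 8 at p under 0.05. Genes of the spindle and of cytokinesis followed with 9 of 10 lower and 6 at p under 0.05. Genes of chromosome structure were lower in 10 of 15 with 0 at p under 0.05.

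Ccnb1 encodes cyclin B1, which activates the kinase that starts mitosis, and lies on chromosome 13 from 100778650 to 100786570 (mm10, as for all positions given). Its values were 1127, 828, 1010, 1035 and 1339 in WDF males, against 1555, 1795, 1698, 1492 and 1560 in WD males. The groups did not overlap (log2 difference -0.61, SE 0.19, limma adjusted p = 0.445). Bub1b, a kinase of the checkpoint that holds chromosomes until they are attached, was 539, 483, 599.5, 623 and 651 in WDF males, against 651, 819, 867, 822 and 851 in WD males. Every WDF male lay below every WD male there too, with the highest WDF male at 651.1 and the lowest WD male at 651.4 (log2 difference -0.47, SE 0.18). Racgap1, which builds the midzone of the dividing cell, had 704, 826, 797, 850.5 and 1010 in WDF males, against 1115, 1197, 1130, 1010 and 942 in WD males. WDF male 5 was the one that reached into the WD range (log2 difference -0.37, SE 0.10). Ect2, the exchange factor that Racgap1 recruits to start furrowing, averaged 515 ± 144 in WDF males and 768 ± 106 in WD males (mean ± SD, n = 5 each, here and below, log2 difference -0.61, SE 0.20). Ccna2, the cyclin of S phase and early mitosis, averaged 3163 ± 411 in WDF males and 4101 ± 778 in WD males (log2 difference -0.36, SE 0.14). Both overlapped between the groups. Melk and Ska3, a mitotic kinase and a part of the complex that ties kinetochores to microtubules, were in the 12 genes of smallest p among those lower in WDF males. Melk averaged 169 ± 11.3 in WDF males and 243 ± 43.5 in WD males (log2 difference -0.51, SE 0.13, limma adjusted p = 0.336). Ska3 averaged 127 ± 18.8 in WDF males and 185 ± 25.4 in WD males (log2 difference -0.54, SE 0.14, limma adjusted p = 0.352). Neither gene overlapped between the groups. Ccnb1-ps, a processed copy of Ccnb1 whose reads cannot be separated with certainty from those of the parent gene, averaged 17.7 ± 3.24 in WDF males and 37.5 ± 7.07 in WD males (log2 difference -1.04, SE 0.27).

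Since most of these genes lay on the same side, the start regions of 4 of the mitosis genes of smallest p are shown. Each has an entry in the RefSeq promoter table (GRCm38.p6), and each window runs from 250 bases before to 50 bases after the transcription start. The choice left out the genes of a chromosome, and Kif20a, between Ect2 and Bub1b by p, is not shown. Capitals mark CCAAT and TTTGAA on either strand (ATTGG and TTCAAA when read on the other strand), the 2 letter strings known from cell cycle promoters as the CCAAT box and the core of the cell cycle homology region.
Racgap1, chr15:99651607-99651906, minus strand: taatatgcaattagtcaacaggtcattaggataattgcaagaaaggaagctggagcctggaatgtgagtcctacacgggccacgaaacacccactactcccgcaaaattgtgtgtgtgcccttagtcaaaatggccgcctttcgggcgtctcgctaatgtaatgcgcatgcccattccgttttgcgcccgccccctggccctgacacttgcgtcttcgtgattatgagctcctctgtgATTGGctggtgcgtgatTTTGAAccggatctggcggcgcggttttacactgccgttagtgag
Ccnb1, chr13:100786437-100786736, minus strand: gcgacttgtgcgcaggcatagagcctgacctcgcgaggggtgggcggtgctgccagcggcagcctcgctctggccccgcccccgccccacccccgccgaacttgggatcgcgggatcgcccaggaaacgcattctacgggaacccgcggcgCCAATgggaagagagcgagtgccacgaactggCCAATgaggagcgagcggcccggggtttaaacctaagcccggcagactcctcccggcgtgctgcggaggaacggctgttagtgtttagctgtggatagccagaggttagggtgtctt
Ect2, chr3:27153829-27154128, minus strand: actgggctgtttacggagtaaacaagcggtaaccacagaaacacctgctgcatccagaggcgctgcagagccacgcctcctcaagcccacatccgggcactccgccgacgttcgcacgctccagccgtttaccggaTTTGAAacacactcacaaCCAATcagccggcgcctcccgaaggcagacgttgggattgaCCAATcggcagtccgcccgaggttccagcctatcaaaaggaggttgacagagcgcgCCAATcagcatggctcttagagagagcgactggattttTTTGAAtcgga
Bub1b, chr2:118597961-118598260, plus strand: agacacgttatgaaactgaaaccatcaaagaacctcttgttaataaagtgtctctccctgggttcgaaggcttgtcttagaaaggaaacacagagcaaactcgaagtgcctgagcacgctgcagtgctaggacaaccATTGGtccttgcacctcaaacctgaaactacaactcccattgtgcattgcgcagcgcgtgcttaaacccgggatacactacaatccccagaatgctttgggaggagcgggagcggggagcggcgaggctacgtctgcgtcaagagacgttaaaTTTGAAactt
The strings were present together in Racgap1, Ect2 and Bub1b, while the Ccnb1 window held CCAAT in 2 places and no TTTGAA. Promoter entries existed for 33 of the 40 mitosis genes. CCAAT was found in 26 of these 33 (78.8%), against 37.9% of 27025 promoters, and TTTGAA in 24 (72.7%), against 18.1%. A CCAAT and a TTTGAA can share at most 1 letter. In the list of DNA replication genes, 15 of 26 promoters held CCAAT and 4 held TTTGAA. There the strings TTTGGCGC and TTTCCCGC, forms of the E2F site, were each found in 6 of 26 (23.1%), against 0.537% and 1.11% of all promoters. These strings can share letters at their ends. A match describes the sequence and shows no binding.

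DNA replication genes ran the same way. Of 33, 27 were lower and 6 higher in WDF males (median -0.21), with 9 lower and 0 higher at p under 0.05 and 3 without overlap. Origin licensing genes were lower in 9 of 10, helicase and fork genes in 15 of 19, and nucleotide supply genes in 3 of 4. Mcm6, a subunit of the replicative helicase, was 2490, 2177, 2169, 2347 and 2002 in WDF males, against 2891, 3015, 3287, 2945 and 2776 in WD males, with no overlap (log2 difference -0.42, SE 0.15, limma adjusted p = 0.48). Prim2, the large subunit of primase, was 245, 320.5, 310.4, 281 and 288 in WDF males, against 409.9, 487, 337, 362 and 323 in WD males, also without overlap (log2 difference -0.40, SE 0.15). Mcm5 averaged 1751 ± 198 in WDF males and 2255 ± 380.5 in WD males (log2 difference -0.36, SE 0.14). Gins2, of the complex that joins the helicase, averaged 154 ± 36.1 in WDF males and 222 ± 42.4 in WD males (log2 difference -0.53, SE 0.23). Pola1, the catalytic subunit of polymerase alpha, averaged 332 ± 83.3 in WDF males and 506 ± 107 in WD males (log2 difference -0.62, SE 0.28). These 3 overlapped.

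Libraries of a group differed in these levels. The mean log2 value over the mitosis list was 9.72 to 9.78 in WDF males 1 to 4 and 10.14 in WDF male 5, against 10.02, 10.31, 10.14, 9.90 and 9.85 in WD males 1 to 5. Red cell markers, which report the blood-forming part of the organ, ran alongside: their mean log2 value was 11.95, 12.13, 12.07, 11.98 and 12.38 in WDF males, against 12.33, 12.64, 12.34, 12.01 and 11.77 in WD males. The summed value of the 31 red cell markers ran from 1887564 to 3406039 in WDF males and from 1171456 to 3984776 in WD males. WD male 2 was the highest WD library in both means, and WD male 5 the lowest. Of 31 red cell markers 25 were lower in WDF males (median -0.12), 2 of them at p under 0.05. Tal1, a regulator of the lineage, averaged 2387 ± 382 in WDF males and 2979 ± 111 in WD males (log2 difference -0.33, SE 0.16). With the red cell level as a covariate the mitosis list had 28 of 40 lower and a median of -0.16, and the replication list 24 of 33 and -0.15. Without WDF male 2 the medians were -0.22 and -0.24, with 7 and 4 members lower at p under 0.05. With all 40 libraries the counts at p under 0.05 were 7 and 2, and with the 10 alone 17 and 7. Without WD male 2 those counts were 6 and 3, without WDF male 3 they were 9 and 4, and without WDF male 4 they were 9 and 5. The replication count was 4 without WD male 3. The part of red cells in the difference was not tested.

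**Figure D1:**
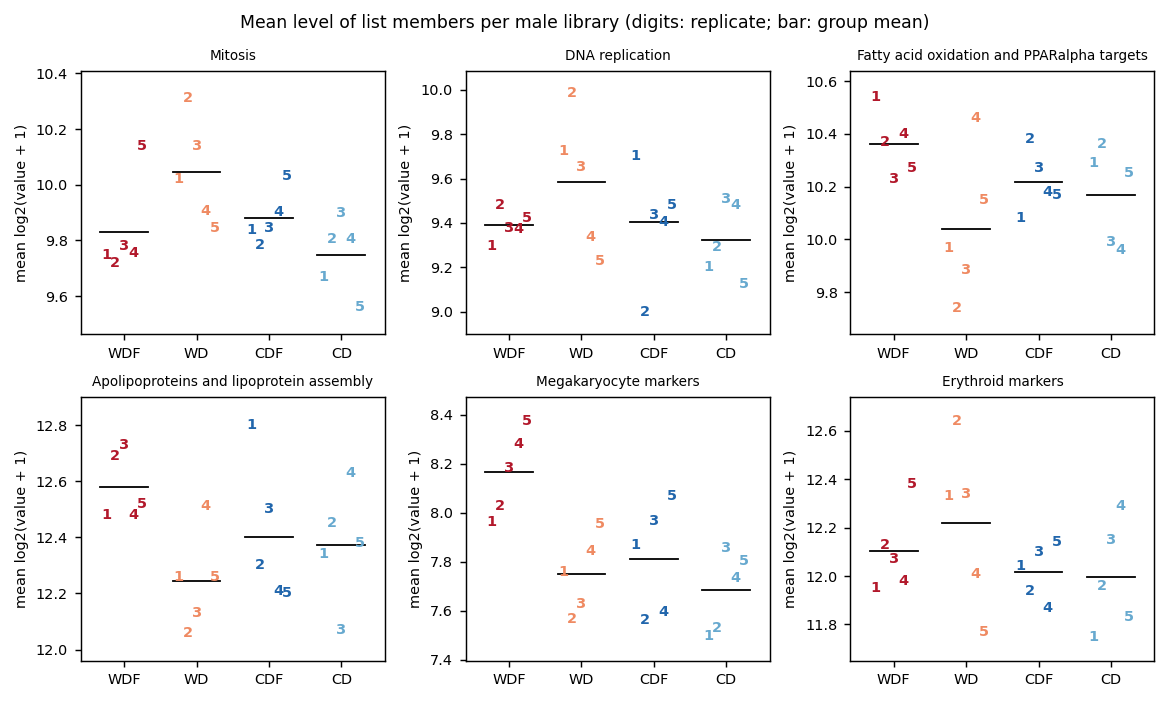
Mean log2(value + 1) over the members of 6 gene lists (vertical axes) in each male library of the 4 diets, with digits giving the replicate and bars the group mean. In the mitosis panel WDF males 1 to 4 lie between 9.72 and 9.78 and WDF male 5 at 10.14, and in the red cell panel WD male 2 (12.64) and WD male 5 (11.77) are the extremes.

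Phf19 had the smallest p of all genes. It encodes an accessory subunit of Polycomb repressive complex 2, the enzyme complex that methylates histone H3 on lysine 27, and lies on chromosome 2 from 34893757 to 34914026. Its values were 33.1, 53.0, 47.0, 41.5 and 41.7 in WDF males, against 163, 69.9, 109, 108 and 70.5 in WD males. The groups did not overlap, with WD male 1 highest, and WDF males stood at 0.438 times the WD level, as a ratio of log-scale means (log2 difference -1.19, SE 0.23, limma adjusted p = 0.105). Leaving out each library in turn gave -1.31 to -1.01, with an adjusted p of 0.0419 without WD male 2 and 0.0445 without WD male 5. Over all 28 alternative settings the adjusted p lay between 0.00178 and 0.491. The list of genes of the complex and of DNA methylation, which includes Phf19 itself, showed no common direction. Of 21 tested, 7 were higher and 14 lower (median -0.042), with Phf1, a relative of Phf19 that also joins the complex, at 219 ± 49.3 in WDF males and 135 ± 38.2 in WD males (log2 difference 0.71, SE 0.24), and the core subunit Suz12 at 1313 ± 179 in WDF males and 1693 ± 219.7 in WD males (log2 difference -0.37, SE 0.18). The DNA methylation genes of that list, among them Dnmt1 and Dnmt3a, had 0 of 10 at p under 0.05. It had 8 higher and 13 lower without WDF male 2 (median -0.051).

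Pms2, second by p among the lower genes, encodes the endonuclease subunit of DNA mismatch repair. Its values were 113, 87.6, 129, 156 and 145 in WDF males, against 282, 192, 194, 351 and 199 in WD males, so that the highest WDF male stayed below the lowest WD male (log2 difference -0.93, SE 0.20, limma adjusted p = 0.305). Pms2 overlaps Rsph10b on the same strand, so part of its reads may be shared. The other 7 mismatch repair genes had 0 at p under 0.05, with Msh6 at 444 ± 49.4 in WDF males and 556 ± 62.1 in WD males. In the 10 libraries alone, or with the red cell covariate, 3 of the 8 were lower at p under 0.05. Over all genes the number lower at that level was 621 without the covariate and 1462 with it. A list of 27 genes of homologous recombination and the Fanconi pathway, chosen after values had been seen and so given without weight, had 22 lower and 5 higher (median -0.33, or -0.30 without WDF male 2). Rbbp8, which starts the resection of broken ends, averaged 288 ± 22.5 in WDF males and 416 ± 59.3 in WD males without overlap (log2 difference -0.52, SE 0.14). Brip1, a helicase that works with Brca1, averaged 85.2 ± 24.8 in WDF males and 174 ± 57.2 in WD males (log2 difference -0.996, SE 0.27). Brca2 went the other way at 347 ± 53.6 in WDF males and 234 ± 51.8 in WD males (log2 difference 0.58, SE 0.23).

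Elp4, a subunit of the Elongator complex that modifies wobble uridines in transfer RNA, was 122, 84.9, 74.8, 124 and 93.5 in WDF males, against 196, 156, 216, 202 and 182 in WD males. It was about 0.52 times the WD level with no overlap (log2 difference -0.94, SE 0.22, limma adjusted p = 0.336). Mettl6, which methylates a cytosine of serine transfer RNA, averaged 264 ± 38.5 in WDF males and 406 ± 51.2 in WD males (log2 difference -0.62, SE 0.16). Mkln1, a part of an E3 ubiquitin ligase, averaged 599.6 ± 55.7 in WDF males and 854 ± 80.4 in WD males (log2 difference -0.51, SE 0.13). Each of these 3 was lower in all 5 WDF males than in any WD male. Low in level were Jph1 (junctophilin, which joins cell membrane and endoplasmic reticulum) at 7.64 ± 2.67 in WDF males and 17.9 ± 3.89 in WD males (log2 difference -1.16, SE 0.26), Ociad2 at 18.4 ± 3.55 in WDF males and 43.0 ± 16.7 in WD males (log2 difference -1.10, SE 0.29) and Gm20633 at 2.62 ± 1.62 in WDF males and 9.79 ± 3.11 in WD males (log2 difference -1.64, SE 0.41).

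**Figure D2:**
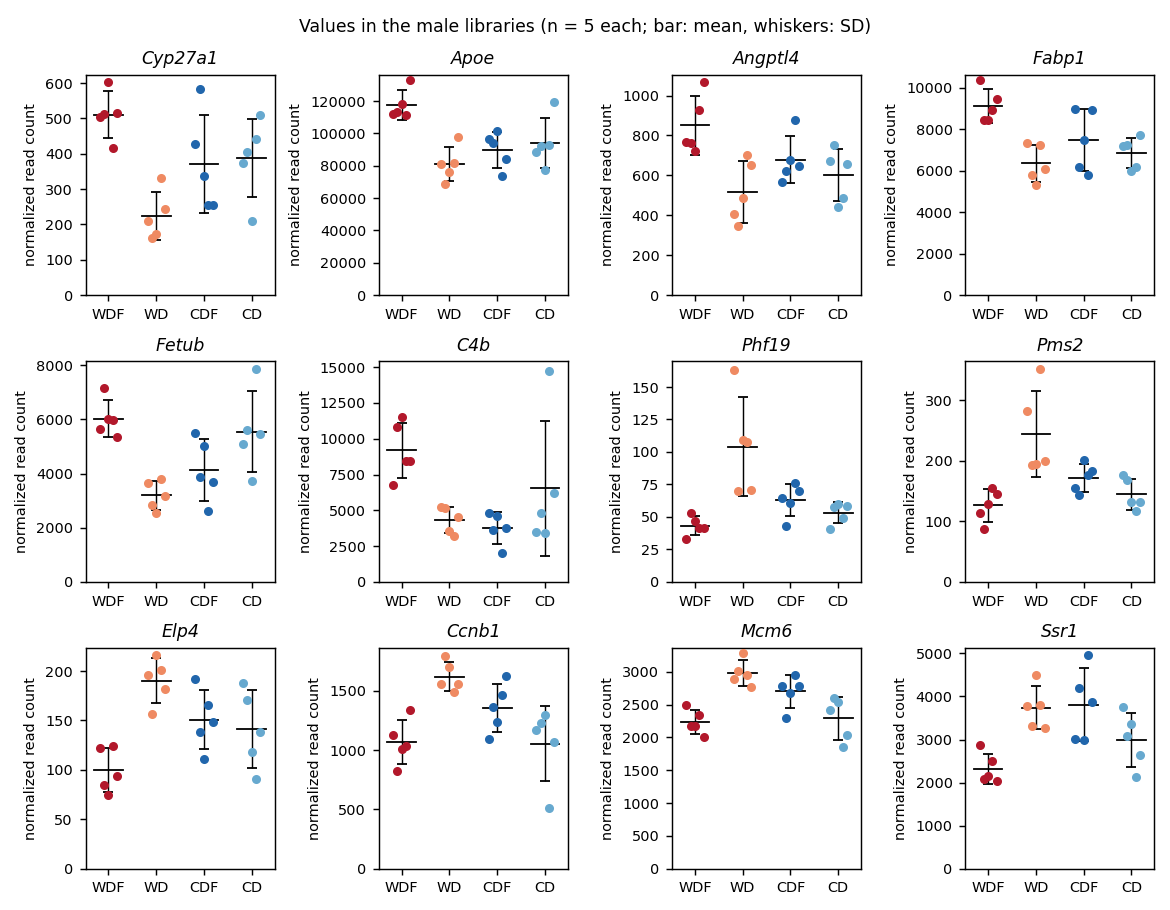
Normalized read count (vertical axes, from 0) of 12 genes in each library of WDF, WD, CDF and CD males, with bars for the mean and whiskers for the SD of 5 libraries. In the first 6 panels, Cyp27a1 to C4b, WDF males lie above WD males without overlap, and in the last 6, Phf19 to Ssr1, below them without overlap.

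Genes of protein entry into the endoplasmic reticulum were among the lower ones in the authors' deposited table, and the lists tell how far that went. Ssr1, of the translocon-associated complex, was 2862, 2076, 2145, 2492 and 2039 in WDF males, against 3774, 3303, 4505, 3812 and 3275 in WD males. There was no overlap (log2 difference -0.69, SE 0.20, limma adjusted p = 0.445). Spcs3, of the signal peptidase, averaged 1320 ± 105 in WDF males and 1853 ± 241 in WD males (log2 difference -0.48, SE 0.15). Stt3a, a catalytic subunit of the enzyme that attaches N-glycans, averaged 2562 ± 303 in WDF males and 4156 ± 893 in WD males (log2 difference -0.68, SE 0.22). Hspa13, a microsomal relative of the Hsp70 chaperones, averaged 275 ± 45.6 in WDF males and 485 ± 45.9 in WD males (log2 difference -0.83, SE 0.28). None of the 3 overlapped. Over 34 genes of signal peptide handling and N-glycosylation, again a list chosen after values had been seen, 23 were lower and 11 higher (median -0.13), with 8 lower at p under 0.05. Over the 20 genes of the unfolded protein response, 15 were lower and 5 higher (median -0.16), with Hspa5, the main chaperone of this compartment, at 12578 ± 2383 in WDF males and 17674 ± 2243 in WD males (log2 difference -0.50, SE 0.21), Asns, the asparagine synthetase of the amino acid response, at 2190 ± 385 in WDF males and 2913 ± 603 in WD males (log2 difference -0.40, SE 0.15), and 0 of the 20 without overlap. The glycosylation list had 5 lower at p under 0.05 without WDF male 2 (median -0.17), where 16 of the 20 response genes were lower (median -0.20).

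On the other side stood genes of the hepatocyte. Cyp27a1, the sterol 27-hydroxylase of the mitochondrion that opens the alternative route of bile acid synthesis, had the smallest p among the higher genes and lies on chromosome 1 from 74713574 to 74737892. Its values were 505, 514, 602, 418 and 516 in WDF males, against 209.5, 162, 174, 330.2 and 245 in WD males. The lowest WDF male exceeded the highest WD male, and the WDF level was 2.34 times the WD level (log2 difference 1.22, SE 0.25, limma adjusted p = 0.205). Over the 22 genes of bile acid synthesis and transport, 18 were higher and 4 lower (median 0.22), with 5 higher at p under 0.05 and 2 without overlap. At p under 0.05 the count was 3 without WDF male 2 (median 0.31), 0 with all 40 libraries, and 2 to 7 over the libraries left out in turn. Abcb11, the pump that exports bile salts into the canaliculus, was 3144, 3301, 3397, 2373 and 2663 in WDF males, against 2140, 2071, 1425, 2349 and 1721 in WD males (log2 difference 0.62, SE 0.23, limma adjusted p = 0.47), with a narrow gap between WDF male 4 and WD male 4. Cyp8b1, which directs the pathway to cholic acid, averaged 1303 ± 222 in WDF males and 835 ± 223 in WD males (log2 difference 0.67, SE 0.30). Hsd3b7, a dehydrogenase of the ring, averaged 2342 ± 237 in WDF males and 1907 ± 381 in WD males (log2 difference 0.31, SE 0.14). Nr0b2, the receptor that represses bile acid synthesis, averaged 24.7 ± 10.3 in WDF males and 13.6 ± 9.82 in WD males (log2 difference 0.92, SE 0.42).

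Lipoprotein genes were higher in 16 of 20 cases (median 0.40), 7 of them at p under 0.05 and 6 without overlap, with 0 lower at p under 0.05. Apoe, the ligand through which remnants are cleared, was 112047, 113310, 117979, 111389 and 133289 in WDF males, against 81360, 68975, 76325, 81531 and 97636 in WD males. The groups did not overlap, and WD male 5 was the highest of its group (log2 difference 0.54, SE 0.13, limma adjusted p = 0.336). Apoa1, the main protein of high density lipoprotein, was 175867, 209720, 209244, 176354 and 166279 in WDF males, against 165986, 143924, 131794, 107844 and 114459 in WD males, with only a narrow gap between WDF male 5 and WD male 1 (log2 difference 0.51, SE 0.24). Apoc3, which slows the breakdown of triglyceride-rich particles, was 1020, 2139, 4581, 1098 and 1074 in WDF males, against 764, 352, 359, 718 and 529.5 in WD males. WDF male 3 was far above the rest of its group, and the lowest WDF male was still above the highest WD male (log2 difference 1.66, SE 0.56, limma adjusted p = 0.455). Apoh averaged 57074 ± 5741 in WDF males and 44244 ± 2991 in WD males (log2 difference 0.36, SE 0.14). The lipid transfer inhibitor Apof averaged 9176 ± 1327 in WDF males and 6673 ± 648 in WD males (log2 difference 0.45, SE 0.18). The hepatic lipase Lipc averaged 1850 ± 259.5 in WDF males and 1389 ± 300.5 in WD males (log2 difference 0.43, SE 0.15). Apoa4 went against the list at 166 ± 173 in WDF males and 362 ± 373 in WD males (log2 difference -0.85, SE 0.70). Without WDF male 2 the list had 15 of 20 higher, 4 at p under 0.05, and a median of 0.35. With all 40 libraries in the fit 0 of the 20 had p under 0.05, and with the 10 alone 10 had.

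The list of fat oxidation genes and PPARα targets (PPARα is the nuclear receptor that switches on fat burning) was higher in 40 of 44 members (median 0.27), with 12 at p under 0.05, 6 without overlap and 0 lower at p under 0.05. The 3 regulators, the 6 genes of peroxisomal oxidation and the 3 of ketogenesis were higher in each case, those of mitochondrial oxidation in 12 of 14, and those of uptake and the carnitine shuttle in 7 of 8. Angptl4, a PPARα target that inhibits lipoprotein lipase, was 769, 762, 721, 928 and 1069 in WDF males, against 405, 344, 485, 704 and 653 in WD males. The gap between the groups was small, since WD male 4 reached 704.2, but there was no overlap (log2 difference 0.75, SE 0.19, limma adjusted p = 0.336). Fabp1, the fatty acid carrier of the hepatocyte, was 10393, 8433, 8471, 8934 and 9472 in WDF males, against 7348, 5812, 5300, 7242 and 6066 in WD males (log2 difference 0.53, SE 0.16, limma adjusted p = 0.445). Slc25a20, the carnitine carrier of the inner mitochondrial membrane, averaged 739 ± 53.5 in WDF males and 557 ± 43.3 in WD males (log2 difference 0.41, SE 0.14). Hadhb, of the trifunctional protein, averaged 4958 ± 255 in WDF males and 4010 ± 417 in WD males (log2 difference 0.31, SE 0.11). Acadvl, which opens the oxidation of long chains, averaged 4582 ± 672 in WDF males and 3000 ± 336 in WD males (log2 difference 0.61, SE 0.23). In these 5 the groups stayed apart.

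Other members of that list varied more among WD males. Acaa1b, a peroxisomal thiolase with a close copy in Acaa1a, was 914, 1143, 936, 786 and 868 in WDF males, against 515, 398, 398, 978 and 343 in WD males. WD male 4 lay with the WDF males (log2 difference 0.92, SE 0.26). Cyp4a10, the omega-hydroxylase often read as a PPARα reporter, was 984, 572, 542, 774 and 782 in WDF males, against 191, 52.6, 122, 765 and 372 in WD males, again with WD male 4 high (log2 difference 1.80, SE 0.64). Cpt1a, the gate of the carnitine shuttle, and Ppara itself averaged 974 ± 171 in WDF males and 873 ± 412 in WD males, and 496 ± 57.8 in WDF males and 428 ± 125 in WD males (limma adjusted p = 0.799 and 0.745). The list had 39 of 44 higher, 11 at p under 0.05, and a median of 0.26 without WDF male 2. With all 40 libraries in the fit 0 of the 44 had p under 0.05, and with the 10 alone 15 were higher and 1 lower at that level. Without WD male 2 the list's median was 0.15, and with the red cell level as a covariate it was 0.14 with 31 of 44 higher.

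**Figure D3:**
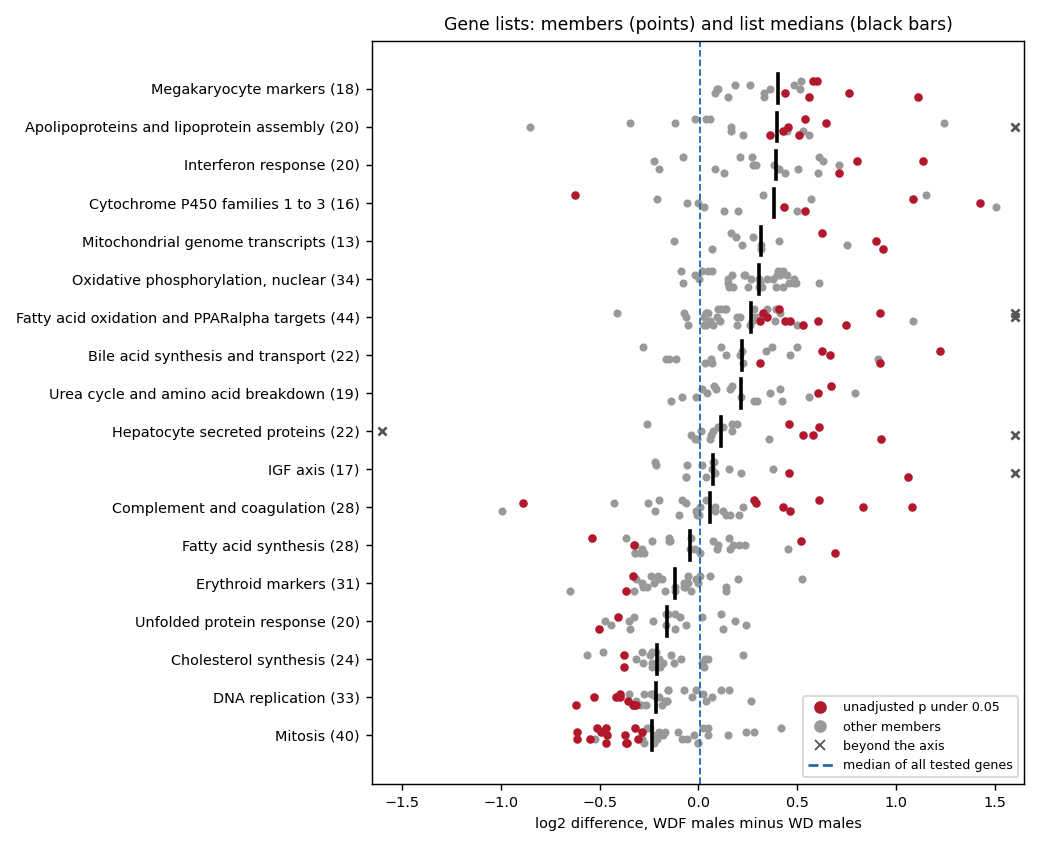
Log2 difference of WDF minus WD males (horizontal axis) for the tested members of 18 gene lists, with red points at an unadjusted p under 0.05, grey points for other members, black bars for list medians and crosses for 6 members beyond 1.6 on the axis, whatever their p. The oxidation list lies right of the median of all genes (0.27 against 0.0079) and the mitosis list left of it (-0.24).

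Lipid synthesis genes went either way. Fatty acid and triglyceride synthesis genes were higher in 12 and lower in 16 of 28 (median -0.041, or -0.18 without WDF male 2), with Acly, which makes cytosolic acetyl-CoA, at 3408 ± 792 in WDF males and 4997 ± 1328 in WD males (log2 difference -0.54, SE 0.26), G6pdx, which supplies NADPH, at 508 ± 35.9 in WDF males and 639 ± 64.4 in WD males (log2 difference -0.33, SE 0.15) and Dgat1, which closes triglyceride synthesis, at 381 ± 99.2 in WDF males and 235 ± 60.9 in WD males (log2 difference 0.69, SE 0.30). Cholesterol synthesis enzymes were lower in 18 of 20, with 2 at p under 0.05, and Sqle, the squalene epoxidase, averaged 2074 ± 361 in WDF males and 2677 ± 294 in WD males (log2 difference -0.38, SE 0.18).

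Secreted proteins of the hepatocyte were higher in 17 of 22 cases (median 0.11), 5 at p under 0.05 and 3 without overlap. Fetub, a plasma protease inhibitor of the cystatin family, was 5649, 7143, 6022, 5987 and 5346 in WDF males, against 3643, 2843, 2537, 3794 and 3158 in WD males. The groups did not overlap (log2 difference 0.93, SE 0.25, limma adjusted p = 0.421). Trf, the iron carrier transferrin, was 780766, 692479, 849220, 703973 and 724974 in WDF males, against 625503, 578612, 565578, 457686 and 507515 in WD males, also without overlap (log2 difference 0.46, SE 0.15). Rbp4, which carries retinol, averaged 31265 ± 2582 in WDF males and 20729 ± 4371 in WD males with some overlap (log2 difference 0.61, SE 0.17). Hp, haptoglobin, averaged 22060 ± 3900 in WDF males and 14776 ± 2712 in WD males (log2 difference 0.58, SE 0.25). The list had 18 members higher without WDF male 2, 3 of them at p under 0.05, and with all 40 libraries 0 had p under 0.05. Serpina6, the corticosteroid-binding globulin, was the exception: its values were 605, 352, 115, 826 and 378 in WDF males, against 1455, 4055, 2546, 1000 and 669 in WD males, with WDF male 4 above WD male 5 and no other overlap (log2 difference -2.07, SE 0.60, limma adjusted p = 0.445).

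Complement and coagulation genes split. Of 28, 17 were higher and 11 lower (median 0.060), with 7 higher and 1 lower at p under 0.05 and 5 higher and 1 lower without overlap. Leaving out WDF male 2 gave 20 higher and 8 lower, again 7 and 1 at p under 0.05, while with all 40 libraries those counts were 0 and 1. C4b, which has a near copy in C4a, was 6796, 10830, 11486, 8453 and 8424 in WDF males, against 5250, 5137, 3570, 3226 and 4563 in WD males (log2 difference 1.08, SE 0.36, limma adjusted p = 0.455). Cfb, the protease of the alternative pathway, averaged 15259 ± 979.5 in WDF males and 11355 ± 1229 in WD males (log2 difference 0.43, SE 0.14). F12, the contact factor, averaged 5536 ± 527 in WDF males and 4010 ± 373 in WD males (log2 difference 0.46, SE 0.15). F10 averaged 7957 ± 308 in WDF males and 6540 ± 240.1 in WD males (log2 difference 0.28, SE 0.10). None of these 3 overlapped between the groups. C6, of the membrane attack complex, was lower without overlap at 76.8 ± 9.63 in WDF males and 146 ± 38.8 in WD males (log2 difference -0.89, SE 0.25).

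Transcription factors of the hepatocyte were higher in 9 of 15 (median 0.18), with 5 higher and 1 lower at p under 0.05. These counts were 3 and 0 without WDF male 2, with 10 of 15 higher, and with all 40 libraries 2 and 0. Foxa3 averaged 1068 ± 182 in WDF males and 794 ± 49.2 in WD males without overlap (log2 difference 0.41, SE 0.17). WDF male 2 was its high library at 1387, and without it the log2 difference was 0.32, still without overlap. Cebpb averaged 547 ± 94.3 in WDF males and 328 ± 92.7 in WD males (log2 difference 0.77, SE 0.32). Nr1i3, the xenobiotic receptor CAR, averaged 236 ± 91.5 in WDF males and 140.0 ± 118 in WD males (log2 difference 1.005, SE 0.35). Xbp1, a regulator of secretory capacity, averaged 2358 ± 408 in WDF males and 2862 ± 118 in WD males (log2 difference -0.30, SE 0.14). Cytochromes P450 of families 1 to 3 were higher in 12 of 16 (median 0.38, or 0.37 without WDF male 2), with Cyp2d22 and Cyp2d9, 2 members of a family of near copies, at 543 ± 56.3 in WDF males and 374 ± 47.7 in WD males (log2 difference 0.54, SE 0.19) and 633 ± 36.7 in WDF males and 336 ± 176 in WD males (log2 difference 1.08, SE 0.32), both without overlap. Cyp2e1 was 1707, 1315, 968, 1324 and 706 in WDF males, against 263, 137, 302, 782 and 1704 in WD males, with WD male 5 at the WDF level (log2 difference 1.42, SE 0.63).

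In the growth factor axis, Igfbp2, which binds insulin-like growth factors in fetal plasma, was 8359, 10163, 12706, 10741 and 18522 in WDF males, against 5555, 1287, 2039, 3582 and 10577 in WD males. WD male 5 was inside the WDF range and WD male 2 lowest, and the WDF level was 3.29 times the WD level (log2 difference 1.72, SE 0.44, limma adjusted p = 0.336). Igf2, the main growth factor of the fetus, was 62032, 52944, 63080, 49358 and 73209 in WDF males, against 38087, 44139, 43798, 42351 and 49113 in WD males, without overlap by a narrow margin (log2 difference 0.46, SE 0.17, limma adjusted p = 0.48). Igfbp1, the binding protein that insulin turns down, was 33732, 23762, 28201, 25870 and 34131 in WDF males, against 5813, 5190, 12596, 23318 and 56847 in WD males. WDF males were even, while WD males ran from 5190 to 56847 (log2 difference 1.06, SE 0.45). H19, the imprinted RNA next to Igf2, averaged 208900 ± 25325 in WDF males and 180224 ± 25959 in WD males (log2 difference 0.22, SE 0.18). Igf1r, the receptor, averaged 436 ± 97.1 in WDF males and 347 ± 123 in WD males (log2 difference 0.38, SE 0.21). Of 17 genes of the axis 12 were higher and 5 lower (median 0.072), 3 of them at p under 0.05. Leaving out WDF male 2 gave 11 higher and 6 lower (median 0.15), again 3 at p under 0.05. With all 40 libraries 1 had p under 0.05, and with the red cell covariate 8 were higher and 9 lower. For glucose, Gys2, the liver glycogen synthase, averaged 2188 ± 298 in WDF males and 1547 ± 261 in WD males (log2 difference 0.50, SE 0.14). Slc37a4, the glucose 6-phosphate transporter, averaged 3257 ± 649.7 in WDF males and 2214 ± 427 in WD males (log2 difference 0.56, SE 0.22), and 10 of 15 genes of gluconeogenesis and glycogen were higher (median 0.098, or 0.16 without WDF male 2).

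Amino acid breakdown genes were higher in 12 of 12 cases (median 0.32), 2 of them at p under 0.05, and urea cycle genes in 4 of 7. Nuclear genes of oxidative phosphorylation were higher in 31 of 34 (median 0.31) and cytosolic ribosomal protein genes in 29 of 33 (median 0.20), with 0 members of either at p under 0.05. That count depends on the setting. With the red cell level as a covariate 15 of the 34 and 8 of the 33 were higher at p under 0.05 (medians 0.40 and 0.33), and in the 10 libraries alone 3 and 1 were. The covariate also raised the number of genes higher at that level over all genes, from 733 to 1545. Leaving out each library in turn gave 0 to 6 of the 34, and without WDF male 2 the medians were 0.24 and 0.14. Of the 13 messages of the mitochondrial genome 12 were higher (median 0.31) and 3 at p under 0.05. All 13 were higher without WDF male 2 (median 0.51), 5 at p under 0.05. mt-Co3, a subunit of cytochrome c oxidase that overlaps mt-Atp6, was 54965, 45601, 66597, 61043 and 63512 in WDF males, against 28458, 37750, 31020, 31458 and 24327 in WD males, without overlap (log2 difference 0.93, SE 0.31, limma adjusted p = 0.455). mt-Co2 averaged 76578 ± 16333 in WDF males and 49536 ± 11277 in WD males (log2 difference 0.63, SE 0.23).

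Further genes of small p in the higher direction belonged to no list. Entpd2, an ectonucleotidase that hydrolyses ATP, was 203, 266, 330.4, 318 and 323 in WDF males, against 156, 112, 114, 179.8 and 129 in WD males (log2 difference 1.05, SE 0.27, limma adjusted p = 0.336). Camk2n1, an inhibitor of the kinase CaMKII, was 851, 936, 772, 903 and 1099 in WDF males, against 611, 759, 524, 581 and 508 in WD males (log2 difference 0.62, SE 0.15, limma adjusted p = 0.336). Both were without overlap. Hps4, a factor for lysosome-related organelles, averaged 278 ± 61.7 in WDF males and 136 ± 48.0 in WD males (log2 difference 1.06, SE 0.26). Slc15a4, an endolysosomal transporter of histidine and peptides, averaged 249 ± 53.5 in WDF males and 168 ± 27.7 in WD males (log2 difference 0.55, SE 0.14). At low levels, Gm35986, annotated as antisense to Elovl6, averaged 45.3 ± 9.71 in WDF males and 20.6 ± 8.79 in WD males (log2 difference 1.16, SE 0.27). Mirt2, a long noncoding RNA, averaged 22.4 ± 9.97 in WDF males and 7.33 ± 4.50 in WD males (log2 difference 1.54, SE 0.40). Slain1, which binds growing microtubule ends, averaged 15.4 ± 4.39 in WDF males and 6.65 ± 2.86 in WD males (log2 difference 1.17, SE 0.31).

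Markers of megakaryocytes, the parents of platelets, all lay higher in WDF males, 18 of 18 (median 0.40), with 6 at p under 0.05 and 4 without overlap. Gp5, a platelet glycoprotein of the receptor for von Willebrand factor, was 256, 338, 319, 307 and 349 in WDF males, against 223, 204, 199, 206 and 196 in WD males (log2 difference 0.60, SE 0.22, limma adjusted p = 0.478). Gp9, of the same receptor, was 224, 215, 233, 209 and 302 in WDF males, against 157, 182, 149.7, 146 and 162 in WD males (log2 difference 0.56, SE 0.20), and Treml1, a granule receptor, 267, 358, 348, 387 and 385 in WDF males, against 230.5, 245, 244, 224 and 212 in WD males (log2 difference 0.58, SE 0.24). In these 3 the groups did not overlap. Itga2b, the integrin chain that marks the lineage, averaged 1918 ± 561 in WDF males and 919 ± 397 in WD males (log2 difference 1.11, SE 0.51). Its partner Itgb3 averaged 1382 ± 154 in WDF males and 1059 ± 334 in WD males (log2 difference 0.44, SE 0.21). Vwf, also a gene of endothelium, averaged 736 ± 187 in WDF males and 422 ± 45.0 in WD males (log2 difference 0.76, SE 0.36). The mean log2 value of the list was 7.96, 8.03, 8.18, 8.28 and 8.37 in WDF males, against 7.76, 7.57, 7.63, 7.84 and 7.95 in WD males. WDF male 1 and WD male 5 all but touched. Without WDF male 2 it was 18 of 18 with a median of 0.41 and 4 at p under 0.05, and without WDF male 3 or WDF male 5 that last count was 3. With all 40 libraries in the fit 0 of the 18 had p under 0.05, and with the 10 alone 10 had. With the red cell covariate 16 of 18 were higher, 8 at p under 0.05, where 1545 genes were higher at that level over all genes.

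Markers of other cells varied by list. Macrophage markers were higher in 8 and lower in 7 of 15 (median 0.092), with 0 higher and 2 lower at p under 0.05. These 2 were Adgre1 and Cd5l, both of liver macrophages. Adgre1 averaged 548 ± 66.5 in WDF males and 728 ± 132 in WD males (log2 difference -0.40, SE 0.18). Cd5l averaged 2225 ± 283 in WDF males and 2911 ± 517 in WD males (log2 difference -0.38, SE 0.18). In the 10 libraries alone 2 markers were higher and 2 lower at that level. Clec4f, of the same cells, was higher in the authors' deposited table (log2 fold change 0.22, adjusted p = 0.258). Sinusoidal endothelial markers were higher in 9 of 12 (median 0.13), or in 10 of 12 without WDF male 2 (median 0.21), with Flt1 at 417 ± 65.0 in WDF males and 284 ± 47.8 in WD males without overlap (log2 difference 0.56, SE 0.16) and Stab1 at 1406 ± 329.8 in WDF males and 859 ± 338 in WD males (log2 difference 0.76, SE 0.36). Interferon response genes were higher in 17 of 20 (median 0.39), 3 at p under 0.05 and 0 without overlap. It was again 17 of 20 without WDF male 2 (median 0.28), and over the libraries left out in turn 0 to 10 had p under 0.05. Isg15, a ubiquitin-like protein of that response, was 1870, 3268, 2259, 2180 and 1898 in WDF males, against 2074, 547, 502, 2087 and 936 in WD males, Rsad2 averaged 6935 ± 1151 in WDF males and 4595 ± 2917 in WD males and Bst2 1093 ± 291 in WDF males and 666 ± 194 in WD males (limma adjusted p = 0.501, 0.514 and 0.539). WD males 1 and 4 were as high as WDF males in Isg15, and the log2 difference was 1.14 with all 5 WDF males and 1.00 without WDF male 2, its high library. Lung markers were higher in 11 of 12 (median 1.73), heart markers in 9 of 9 (0.70) and skeletal muscle markers in 10 of 12 (0.67), with 0 at p under 0.05. The medians of these 3 lists were 0.37, 0.21 and 0.34 without WDF male 2. Heart markers summed to 88 to 440.3 in WDF males and 92 to 126 in WD males, with WDF males 2 and 4 highest. Skeletal muscle markers summed to 312 to 791 in WDF males and 182 to 1346 in WD males. The part of such tissue in the results above was not tested.

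Genes that handle folate itself gave no common direction. Of 17 genes of folate carriers and the cytosolic cycle 9 were higher and 8 lower (median 0.11), with 2 higher and 1 lower at p under 0.05. The split was 10 higher and 7 lower without WDF male 2 (median 0.041), with 0 higher and 1 lower at p under 0.05. Aldh1l1, which releases carbon units from 10-formyltetrahydrofolate as carbon dioxide, was 2058, 2572, 1977, 2101 and 2268 in WDF males, against 1290, 1525, 1624, 2357 and 1891 in WD males, and Ftcd, which feeds carbon from histidine into the pool, 2043, 2088, 1866, 1792 and 1572 in WDF males, against 1484, 1365, 1515, 1826 and 1531 in WD males. The groups overlapped in both (log2 difference 0.36, SE 0.17, and log2 difference 0.28, SE 0.13). Folr1, a folate receptor, was at a low level, 5.85, 5.75, 3.98, 3.81 and 3.31 in WDF males, against 7.02, 8.75, 14.7, 13.6 and 13.3 in WD males, lower without overlap (log2 difference -1.15, SE 0.55). Tyms, the thymidylate synthase, averaged 670.2 ± 58.5 in WDF males and 864 ± 259 in WD males (log2 difference -0.32, SE 0.17). The carrier Slc19a1 averaged 148 ± 22.7 in WDF males and 164 ± 26.5 in WD males, Fpgs, which retains folate in cells, 1184 ± 156 in WDF males and 1062 ± 174 in WD males, and Shmt1 1449 ± 180.5 in WDF males and 1337 ± 72.2 in WD males.

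In the mitochondrial branch and glycine cleavage 10 of 11 genes were lower, 1 at p under 0.05 (Mthfd2l, 40.1 ± 8.11 in WDF males and 55.8 ± 7.85 in WD males), with a median of -0.12, or -0.16 without WDF male 2. Methionine, choline and betaine genes were higher in 14 and lower in 9 of 23 (median 0.056), with 1 each way at p under 0.05, and 0 without WDF male 2. These were Sardh, the mitochondrial sarcosine dehydrogenase, at 2740 ± 463 in WDF males and 2045 ± 566 in WD males (log2 difference 0.46, SE 0.18), and Mmachc, which processes vitamin B12, at 109 ± 27.6 in WDF males and 148 ± 17.4 in WD males (log2 difference -0.47, SE 0.21). Bhmt, which remethylates homocysteine with betaine, was 9292, 5534, 3376, 5276 and 7067 in WDF males, against 2186, 2947, 2118, 8853 and 4029 in WD males, with WD male 4 near the top of both groups (log2 difference 0.75, SE 0.40). Mat2a, which makes S-adenosylmethionine outside the adult hepatocyte, averaged 1940 ± 355 in WDF males and 1360 ± 479 in WD males (log2 difference 0.57, SE 0.29). Gnmt, which disposes of it, averaged 3110 ± 449 in WDF males and 2466 ± 302 in WD males (log2 difference 0.33, SE 0.22).

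Values for the same dose step in females and on the control diet are set beside those above. The genes and lists shown were put forward for their values in WDF against WD males. Smaller differences elsewhere can come from that choice alone. Between WDF and WD females limma called 0 genes, with 221 (1.44%) at p under 0.05, and between CDF and CD males 0, with 536 (3.49%). Some female libraries also held message of other tissue. WDF female 1 had Myh6, a heart marker, at 737, and WD female 4 had Sftpc at 2008. Phf19 averaged 64.5 ± 15.2 in WDF females and 57.2 ± 13.6 in WD females, and 63.1 ± 12.5 in CDF males and 53.3 ± 8.19 in CD males. Cyp27a1 averaged 410.3 ± 117 in WDF females and 362 ± 103 in WD females, and 372 ± 139 in CDF males and 388 ± 111 in CD males. For Phf19 the log2 difference was -1.19 in WDF against WD males, 0.18 in WDF against WD females and 0.23 in CDF against CD males. In the lists the mitosis median was -0.24 in WDF against WD males, 0.0077 in WDF against WD females and 0.13 in CDF against CD males. Oxidation genes stood at 0.27, 0.051 and 0.10, apolipoproteins at 0.40, -0.081 and -0.048, megakaryocyte markers at 0.40, 0.17 and 0.13, and nuclear genes of oxidative phosphorylation at 0.31, -0.26 and -0.13 in the same order.

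**Figure D4:**
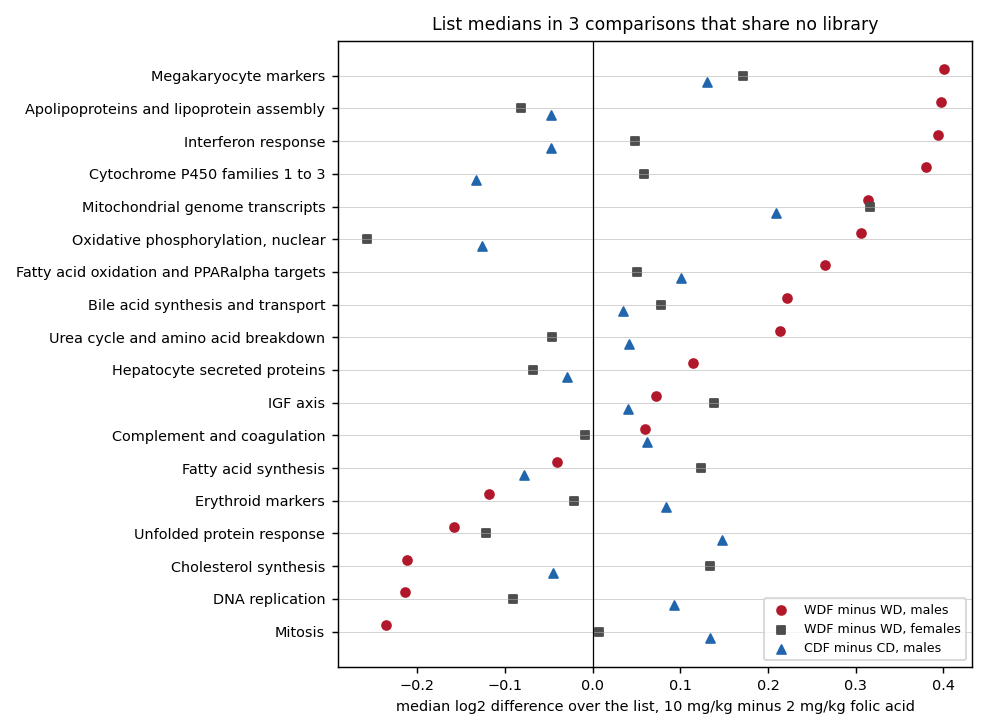
Median log2 difference between 10 and 2 mg/kg folic acid (horizontal axis) for 18 gene lists in WDF against WD males (circles), WDF against WD females (squares) and CDF against CD males (triangles). The apolipoprotein list is at 0.40 in the first and at -0.081 and -0.048 in the others, while the messages of the mitochondrial genome lie at 0.31, 0.32 and 0.21.

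Tested directly, the effect in males minus that in females gave 0 genes at an adjusted p under 0.05 by limma (1156 at p under 0.05, 7.52%, and 0 by limma-voom). The 5 of smallest p were Phf19 (difference of effects -1.37, SE 0.32, limma adjusted p = 0.58), Pms2 (-1.21, SE 0.29, limma adjusted p = 0.58), Hps4 (1.47, SE 0.37, limma adjusted p = 0.58), Arap1 (1.15, SE 0.29, limma adjusted p = 0.58) and Ociad2 (-1.52, SE 0.41, limma adjusted p = 0.58). Of these, Phf19, Pms2, Hps4 and Ociad2 were also in the 12 genes of smallest p in their direction between WDF and WD males. This test uses those 10 libraries again, so it is no separate support for them. Pms2, for one, had log2 differences of -0.93 in WDF against WD males, 0.28 in WDF against WD females and 0.25 in CDF against CD males. Arap1, which regulates small GTPases at membranes, averaged 984 ± 256 in WDF males and 646 ± 124 in WD males and 649 ± 217 in WDF females and 936 ± 149 in WD females. Without WDF male 2 there were 384 genes at p under 0.05 with a more positive effect in males and 355 with a more negative one, and with library weights 579 genes passed. For the lists, 7 of 20 apolipoprotein genes had p under 0.05 for a more positive effect in males and 0 for a more negative one, and 6 of 40 mitosis genes for a more negative one and 0 for a more positive one.

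Set against the control diet, the effect in males minus that in CDF and CD males again gave 0 genes by limma (1893 at p under 0.05, 12.3%, and 0 by limma-voom), while library weights gave 397. Smallest in p were 0610009L18Rik (2.66, SE 0.57, limma adjusted p = 0.281), Mirt2 (2.54, SE 0.56, limma adjusted p = 0.281), Phf19 (-1.42, SE 0.32, limma adjusted p = 0.281), Clec4d, a receptor of myeloid cells (2.33, SE 0.53, limma adjusted p = 0.281), and Wdr70 (-0.76, SE 0.17, limma adjusted p = 0.281). Of 40 mitosis genes 16 had p under 0.05 for a more negative effect on the western diet and 0 for a more positive one, and of 33 replication genes 9 and 0. CD male 5 also carried Sftpc, at 4012. Mirt2 and Phf19 were also in the 12 genes of smallest p in their direction between WDF and WD males, whose libraries this test uses again.

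WD males held the far end of several of these measures. Ccnb1 averaged 1068 ± 186 in WDF males and 1620 ± 123 in WD males, and 1357 ± 202 in CDF males and 1055 ± 314 in CD males. Mcm6 averaged 2237 ± 187 in WDF males and 2983 ± 191 in WD males, and 2701 ± 248 in CDF males and 2293 ± 330.5 in CD males. Pms2 was likewise highest in WD males, with 126 ± 26.9 in WDF males and 244 ± 70.6 in WD males, and 172 ± 23.0 in CDF males and 145 ± 25.6 in CD males. Cyp27a1, given above, had WDF males highest and WD males lowest, with CDF and CD males between. Fetub averaged 6029 ± 681 in WDF males and 3195 ± 529 in WD males, and 4136 ± 1143 in CDF males and 5545 ± 1499 in CD males, so that CD males reached the WDF level. CD male 4 was the highest CD male in Fetub (7874) and the lowest in Ccnb1 (514.6) and Mcm6 (1851). The order of the 4 groups was not tested. Comparisons of WD with CD males share the WD libraries with those of WDF with WD males, so the 2 sets of differences are not independent. From WD against CD males the median log2 difference was 0.30 for mitosis, 0.27 for replication, -0.11 for oxidation and -0.18 for apolipoproteins.

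The same comparison in the authors' deposited table, for which the submitters' processing notes list DESeq2, gave adjusted p-values for 13715 genes and called 203 (1.48%), with 134 higher (0.977%) and 69 lower (0.503%) in WDF males. The table names the same comparison, so its calls are no independent support. All 203 had the same direction here, 193 at p under 0.05 by limma. In 90 of the higher and 56 of the lower ones the groups did not overlap. For some genes named above the size of the difference was not alike. Igfbp2 had a log2 fold change of 0.060 in the authors' deposited table (adjusted p = 0.206), against 1.72 here. Serpina6, which that table called, had -0.081 there, against -2.07 here, and Cyp4a10 had 0.042, against 1.80. For Serpina6 the deposited fold change was smaller than its standard error (0.161), while its raw p in that table was 0.000431. The p there thus does not follow from that fold change and its error. Deposited sizes are therefore not on the same scale as those here, and the gap between them is no disagreement on a gene. The reason was not tested. Smallest in adjusted p among the higher in the authors' deposited table were Fetub (log2 fold change 0.87, adjusted p = 1.95e-06), mt-Co3 (log2 fold change 0.88, adjusted p = 5.43e-06), Cyp27a1 (log2 fold change 1.12, adjusted p = 1.99e-05), C4b (log2 fold change 1.01, adjusted p = 5.41e-05), Ech1, an enzyme of unsaturated fatty acid oxidation (log2 fold change 0.57, adjusted p = 6.34e-05), Entpd2 (log2 fold change 0.99, adjusted p = 8.69e-05) and Chchd10, a protein of mitochondrial cristae (log2 fold change 0.64, adjusted p = 0.000106). Behind them in the authors' deposited table came Ccdc152 (log2 fold change 2.10, adjusted p = 0.000186), Pigo, which adds ethanolamine phosphate to membrane anchors (log2 fold change 0.85, adjusted p = 0.000396), and Zfp950 (log2 fold change 0.65, adjusted p = 0.000662).

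Among the lower genes the authors' deposited table was led by Hspa13 (log2 fold change -0.77, adjusted p = 6.34e-05), Elp4 (log2 fold change -0.85, adjusted p = 0.000705), Ssr1 (log2 fold change -0.62, adjusted p = 0.00143), Mesd, a chaperone of lipoprotein receptors (log2 fold change -0.47, adjusted p = 0.00181), and Phf19 (log2 fold change -1.08, adjusted p = 0.00223). Next in the authors' deposited table were Gpr89 (log2 fold change -0.87, adjusted p = 0.00267), Jpt2 (log2 fold change -0.56, adjusted p = 0.00323), Mkln1 (log2 fold change -0.46, adjusted p = 0.00411), Usp14, a deubiquitinase of the proteasome (log2 fold change -0.55, adjusted p = 0.00506), and C6 (log2 fold change -0.82, adjusted p = 0.00536). Ech1 was 3475, 3812, 3395, 3320 and 3319 in WDF males, against 2390, 2531, 1995, 2444 and 1983 in WD males, and Mesd was 586, 589.6, 646, 610.2 and 615 in WDF males, against 993, 766, 914, 931 and 776 in WD males. Both were without overlap. Ccdc152 was 44.0, 234, 134, 98.3 and 139 in WDF males, against 20.9, 11.5, 50.4, 31.6 and 19.8 in WD males, where WDF male 1 lay under the highest WD male, and it overlaps Selenop on the other strand. By list, the authors' deposited table called 5 of 20 apolipoprotein genes and 5 of 18 megakaryocyte markers higher, 4 of 40 mitosis genes lower, 3 of 44 oxidation genes higher, and 0 of 17 genes of folate carriers and the cytosolic folate cycle.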

How the data were processed

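Whole-liver RNA of 1 fetus a library was selected for poly(A), made into directional libraries and sequenced from both ends (43 nt each), per the labels' protocols. The submitters' processing notes name Trimmomatic 0.39, STAR 2.7.3a, Salmon 1.3.0, DESeq2 1.24 and the mm10 build. The signal deposited by the authors for 20593 genes holds values that are not whole. Median-ratio size factors recomputed from it are 1.01 in every library, so the values are read here as read counts that the authors had already divided by a scaling factor per library, though no header or label states this step. Between 34.5% and 55% of a library's low values lay within 0.1 of a whole multiple of the best step, too few to recover whole reads, so depth and counting intervals are unknown and no count model was used. The authors' deposited table gives their own log2 fold changes and p-values (raw and adjusted) for WDF against WD males. Its samples are not listed in it.

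Values were tested as log2(value + 1) with limma 3.58.1 in R 4.3.3 (intensity trend, robust, Benjamini-Hochberg adjustment, threshold 0.05, two-sided). Genes were tested where 5 or more of 38 libraries reached a value of 10. The 38 libraries of 8 groups shared 1 fit, without CD female 4 and CDF female 5, which carry lung message. "No overlap" means that all 5 values of a group lie above all 5 of the other. Fold changes on this scale understate low genes. Groups were taken from the sample titles.

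The members and all gene lists (43, and 2 added after values were seen) were chosen with earlier results of these data known, so lists are described by counts and medians only. Named genes are the 12 of smallest p in each direction, up to 6 of smallest p in each list, any gene of the folate, methionine, IGF and mismatch repair lists, the first 10 each way in the authors' deposited table, the first 5 in each difference of effects, and tissue and sex checks. Acadvl, Apoa4, Cpt1a, F10 and Ppara were named after their values had been seen, as were genes of the 2 added lists. Positions are from GENCODE M21, matched for 20563 gene IDs. Of the named genes 43 overlap another gene of the table, 38 of them on the opposite strand. Whether strand was used in counting is not given in the sources used here, so such genes and near copies (Ccnb1-ps, C4b, Cyp2d9, Cyp4a10, Acaa1b) are uncertain. Promoters are from RefSeq (GRCm38.p6). Alternatives covered the libraries in the fit, a red cell covariate, filters, pseudocounts, scaling, limma-voom, library weights and leaving out each WDF and WD male library.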

Additional observations from a re-analysis of the deposited data

Results flagged for a closer look

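In groups of 5 a library was singled out when its gap to the nearest other exceeded 0.71 of the group's range, which chance gives in about 1 group in 20. Over 268 groups of named genes and 90 of gene lists, 358 in all, 19 (5.31%) held such a value, which is about the share chance gives. These 19 values came from 8 of the 10 libraries.

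Among genes of the report, Bub1b was 651.4 in WD male 1 (819.1 to 867 in the other 4) and Stt3a 3092 in WDF male 4 (2327 to 2503). WD male 4 had the high value in Acaa1b (978.3, others 343.1 to 514.6) and in Bhmt (8853, others 2118 to 4029). WD male 1 was high in Apoh (49493, others 42146 to 43764), Shmt1 (1461, others 1280 to 1329) and Bst2 (1002, others 516.2 to 636.2). WD male 2 was high in mt-Co2 (69092, others 39906 to 46769) and low in Slc19a1 (118.4, others 167.3 to 185.9) and Usp14 (1003, others 1141 to 1173).

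In WDF males, Gp9 was 302.2 in replicate 5 (others 209 to 232.8) and Apoa4 474.1 in replicate 3 (others 61.8 to 117.6). Arap1 was 538.3 in replicate 1 (others 1054 to 1195). WDF male 2 was high in Sftpc (5978, others 0 to 132.7), Isg15 (3268, others 1870 to 2259) and Foxa3 (1387, others 944.7 to 1041), and its mean log2 value of lung markers was 8.614 (others 2.914 to 4.49). The mean log2 value of the mitosis list was 10.14 in WDF male 5 (others 9.717 to 9.78), and that of the core clock list was 7.471 in WDF male 1 (others 7.216 to 7.288).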

How the results depend on the processing

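Where the report gives 0 genes past an adjusted p of 0.05 between WDF and WD males, the count was 1 with the red cell covariate and 1 without the 6 further libraries of Sftpc above 1000 (WDF male 2 among them), 621 with library weights (648 in the 10 libraries alone), and 0 in the other settings that kept the 10 WDF and WD male libraries. At an unadjusted p under 0.05 (733 higher, 621 lower) the counts were 356 and 358 with all 40 libraries, 1545 and 1462 with the covariate, 1710 and 1697 with weights and 1772 and 1643 with weights in 10 libraries, where limma-voom gave 1029 lower. For males minus females they were 261 and 330 with 40 libraries, 1731 and 1518 with the covariate, 2224 and 2173 with weights (579 adjusted), and 374 and 336 without the 6 libraries. For the western minus the control diet they were 461 and 565 with 40 libraries, 1970 and 1983 with the covariate, and 1666 and 1648 with weights (397 adjusted). The cause of these shifts was not tested. Only the 10 WDF and WD male libraries were left out in turn, not those of females or of CDF and CD males. Leaving out each of the 10 gave 0 to 2 genes past the adjusted p, with 551 to 871 higher and 412 to 797 lower at p under 0.05. The counts at p under 0.05 were 384 to 904 and 355 to 863 for males minus females, and 690 to 1127 and 654 to 1202 for the western minus the control diet. Genes without overlap then numbered 247 to 477 higher and 212 to 508 lower, since fewer libraries overlap less easily. List medians ranged from -0.31 to -0.18 for mitosis, -0.29 to -0.16 for replication, 0.15 to 0.31 for oxidation, 0.33 to 0.43 for apolipoproteins and 0.32 to 0.47 for megakaryocyte markers.

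The numbers in the labels are shared by the groups but did not pair WDF males with WD males (correlations of same-numbered deviations -0.175, 0.204, 0.0664, 0.136 and -0.0291). Males and females of the same diet and number were not compared in this way. Whether they are tied, as littermates would be, is unknown, and the test of males minus females treats them as independent. A replicate block gave 0 adjusted genes, with 773 higher and 583 lower at p under 0.05. Of 3726 values of named genes at alternative settings, 0 changed sign. Settings that change only the other libraries, the filter or the spread keep the same log2 difference, so the sign was fixed there in advance. Many of these genes were also chosen by small p in this comparison, so the count is no measure of stability. Outside library weights 4 values had an adjusted p under 0.05 by limma. These were Phf19 without WD male 2 and without WD male 5, Xist without the 6 libraries and Hps4 with the covariate. Depth is unknown, so the limit it sets on low genes such as Folr1 and Jph1 is not given.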
